A study of Mus musculus with 14 samples.

Results

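Cathepsins are the proteases of the lysosome, and 9 of them, Ctsa, Ctsb, Ctsc, Ctsd, Ctsh, Ctsk, Ctsl, Ctss, and Ctsz, were followed by gene symbol in the kidney transcriptomes of 14 mice. The files list 21878 genes, all 9 cathepsins were found in every mouse with values above 0, and all 9 were among the 14912 genes that passed the filter on low values, which kept genes that reached an FPKM of 0.1 in 3 mice or more. FPKM gives the fragments of a gene adjusted for transcript length and sequencing depth, so that levels of different genes can be set side by side.

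The study asked how loss of complement factor B (Cfb), an enzyme of the alternative complement pathway, alters the diabetic kidney. WT diabetic mice (n = 4) and Cfb-/- diabetic mice (n = 4) had received a high-fat diet with 60% of calories from fat for 4 weeks and then streptozotocin (STZ), a toxin of insulin-producing cells, at 60 mg/kg on 5 days. WT control mice (n = 3) and Cfb-/- control mice (n = 3) had received chow with 10% of calories from fat and citrate buffer. All were male C57BL/6J mice, 8 weeks old at the start, and the methods give 21 weeks from STZ to sacrifice, whereas the labels state 34 weeks with no starting point. The Cfb-/- control mice carried the deletion as the Cfb-/- diabetic mice did. The labels name the deletion a knockdown and describe the treatment of the control mice with the text used for diabetic mice. Each library came from the kidney of 1 mouse, and in such bulk tissue fewer cells of a type and less RNA per cell cannot be told apart.

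Cfb itself was listed at 1.13 to 1.43 FPKM in Cfb-/- diabetic mice and 2.05 to 2.22 in Cfb-/- control mice, against 56.7 to 81.9 in WT diabetic mice and 62.2 to 131 in WT control mice. All genes together summed to 330246 to 488196 FPKM per mouse, and relative depth, read from the steps between low values, was 0.839 to 1. Absolute depth is unknown. The median log2 fold change of all genes with diabetes was 0.29 in WT mice and 0.22 in Cfb-/- mice. Median-ratio scaling moved these medians to 0.03 and -0.01, and quantile normalization moved both to -0.05, so each cathepsin is also given relative to the median of all genes.

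Most cathepsins are cysteine proteases of the papain family, made as inactive precursors, carried to the lysosome by mannose 6-phosphate receptors, and activated by acid. Ctsd is an aspartic protease and Ctsa a serine carboxypeptidase. In the kidney, the proximal tubule uses its lysosomes to degrade filtered protein, and macrophages use theirs to digest engulfed material and to prepare antigens for MHC class II.

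Promoter sequences of RefSeq (GRCm38.p6, from 250 bases before to 50 after an annotated start) were found for 7 of the 9 cathepsins, in 8 windows, and not for Ctsb and Ctsh. Stretches of 4 of them are shown, from genes that rose together with diabetes (Ctss, Ctsk, and Ctsd) and from Ctsa, which passed the threshold in neither genotype. The letters CACGTG, the E-box core that also lies within the element bound by the lysosomal regulator TFEB, were searched on both strands, and so were TCACGTG, which overlaps it, and GAGGAA, a purine motif that was chosen after the values had been seen. Capitals mark CACGTG in Ctsd and Ctsa, and GAGGAA on either strand in Ctss and Ctsk.
Ctss promoter, chr3:95526616-95526785, plus strand: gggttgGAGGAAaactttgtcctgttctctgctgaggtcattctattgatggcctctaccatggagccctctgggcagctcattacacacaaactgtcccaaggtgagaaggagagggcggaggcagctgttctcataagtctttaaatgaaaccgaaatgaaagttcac
Ctsk promoter, chr3:95499110-95499209, plus strand: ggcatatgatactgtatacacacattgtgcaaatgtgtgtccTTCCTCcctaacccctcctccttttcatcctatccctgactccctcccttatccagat
Ctsd promoter, chr7:142387908-142387937, minus strand: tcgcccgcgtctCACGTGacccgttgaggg
Ctsa promoter, chr2:164833747-164833776, plus strand: aatgagcaaactgtCACGTGatgcagatgc

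Counted from the annotated start, the Ctsd window held CACGTG at -245 and -98, the second Ctsa window at -12 and 6, and the Ctsl window at -236, whereas the windows of Ctsc, Ctsk, Ctss, and Ctsz held none. Thus 3 of 7 cathepsins had the motif, which was present in 8.09% of 27025 genes, and 2 of 7, Ctsa and Ctsd, had TCACGTG, present in 4.29%. GAGGAA was found in the windows of Ctsc, Ctsk, and Ctss and in none of the windows of Ctsa, Ctsd, Ctsl, and Ctsz, and 31.3% of genes held it. These matches describe letters and not bound sites. Ctsk and Ctss are neighbours on chromosome 3, at chr3:95499210-95509387 and chr3:95526786-95556405, with 17398 bases between them and the start of 1 other gene, Gm40096, in that interval. The other cathepsins lie at chr2:164832872-164841032 (Ctsa), chr2:174427494-174439039 (Ctsz), chr7:88278024-88315861 (Ctsc), chr7:142375910-142387827 (Ctsd), chr9:90054267-90076095 (Ctsh), chr13:64361890-64370772 (Ctsl), and chr14:63122462-63145923 (Ctsb), and all 9 are annotated as protein coding.

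With diabetes, 5 of the 9 cathepsins rose and 1 fell in WT mice at a Benjamini-Hochberg adjusted p under 0.05 in limma, where 46.1% of all tested genes were called, 36.2% higher and 9.97% lower. In Cfb-/- mice 5 rose and 1 fell as well, where 33.8% of all genes were called, 27.4% higher and 6.4% lower. The risers in each genotype were Ctss, Ctsc, Ctsk, Ctsd, and Ctsb, and the gene that fell was Ctsh. The criteria of the study were a fold change above 2 or below 0.5 together with a p, before adjustment, of less than 0.05. By them Ctss, Ctsc, and Ctsk were called higher in each genotype and 0 cathepsins lower, where 17.5% of genes were called in WT mice (15.6% higher and 1.82% lower) and 14.9% in Cfb-/- mice (13.3% higher and 1.66% lower). The 2 comparisons have no mice in common. The split depended on the scaling. After median-ratio scaling 4 cathepsins were called higher and 4 lower in WT mice and 4 higher and 1 lower in Cfb-/- mice, and of all genes 3391 were then higher and 3347 lower in WT mice, against 5392 and 1487 in the values as deposited. Quantile normalization gave 5 higher and 1 lower in WT mice and 6 and 1 in Cfb-/- mice, with 2366 genes higher and 2992 lower in WT mice. In Cfb-/- mice the split of all genes was 4083 higher and 955 lower as deposited, 2761 and 2101 after median-ratio scaling, and 2146 and 2228 once quantile normalization was applied.

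**Figure D1:**
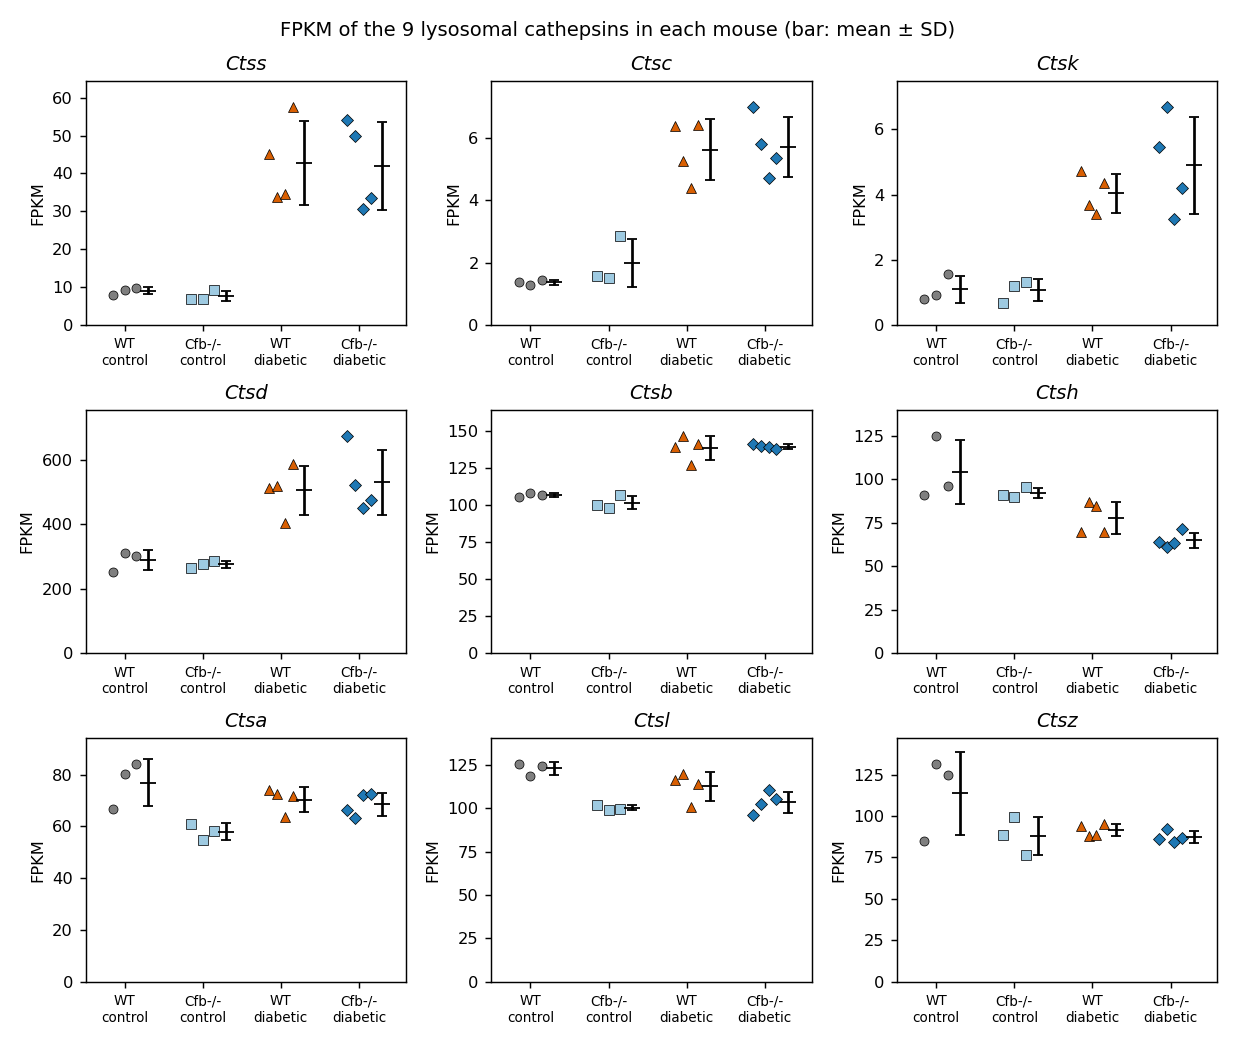
FPKM of each cathepsin (vertical axis, from 0) in each mouse of the 4 groups, with mean ± SD as bars. The diabetic mice of both genotypes lie above all control mice for Ctss, Ctsc, Ctsk, Ctsd, and Ctsb and below all control mice for Ctsh.

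Ctss encodes a cysteine protease of antigen-presenting cells that trims the invariant chain of MHC class II. Its level was 7.99, 9.32, and 9.75 FPKM in WT control mice and 45.2, 33.8, 34.5, and 57.5 in WT diabetic mice. In Cfb-/- mice it was 6.92, 6.70, and 9.14 FPKM in controls and 54.0, 49.8, 30.6, and 33.4 with diabetes. Every diabetic mouse lay above every control mouse of its genotype, as was the case for 35.5% of all genes in WT mice and 33.6% in Cfb-/- mice. Ctss rose 4.60-fold in WT mice (log2 fold change 2.20, SE 0.22, adjusted p = 8.25e-06) and 5.36-fold in Cfb-/- mice (log2 2.42, SE 0.22, adjusted p = 4.67e-06). Relative to the median of all genes the log2 changes were 1.92 and 2.20. The WT log2 fold change was above that of 98.0% of tested genes, and the Cfb-/- one above that of 99.0%.

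Ctsc encodes dipeptidyl peptidase I, which activates serine proteases of immune cell granules. It was measured at 1.38, 1.28, and 1.44 FPKM in WT control mice and 6.40, 5.27, 4.41, and 6.43 in WT diabetic mice. In Cfb-/- control mice it was 1.58, 1.5, and 2.86 FPKM, with the third mouse well above the others, and in Cfb-/- diabetic mice 7.0, 5.83, 4.71, and 5.35. Groups did not overlap in either genotype. Ctsc rose 3.86-fold in WT mice (log2 1.95, SE 0.21, adjusted p = 1.46e-05) and 2.88-fold in Cfb-/- mice (log2 1.53, SE 0.21, adjusted p = 9.28e-05), and relative to the median of all genes the log2 changes were 1.66 and 1.31. Over the mice left out in turn the Cfb-/- log2 fold change ranged from 1.37 to 1.81, and the call was kept each time.

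Ctsk encodes the collagen-degrading cathepsin known from osteoclasts, and it was the least abundant of the 9 in every group. Control values were 0.793, 0.904, and 1.57 FPKM in WT mice and 0.678, 1.19, and 1.33 in Cfb-/- mice. Diabetic values were 4.71, 3.68, 3.39, and 4.36 FPKM in WT mice and 5.46, 6.69, 3.26, and 4.19 in Cfb-/- mice, again without overlap. The rise was 3.59-fold in WT mice (log2 1.84, SE 0.28, adjusted p = 1.60e-04) and 4.29-fold in Cfb-/- mice (log2 2.10, SE 0.28, adjusted p = 6.66e-05), or 1.55 and 1.88 on the log2 scale relative to the median of all genes.

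Ctsd, the main aspartic protease of lysosomes, was the most abundant of the 9 in every group and did not overlap the next cathepsin in any. It stood at 253, 312, and 303 FPKM in WT control mice and 512, 520, 404, and 588 in WT diabetic mice. In Cfb-/- mice it was 265, 275, and 286 FPKM in controls and 675, 523, 450, and 475 with diabetes. The lowest diabetic mouse, at 404 FPKM, lay above the highest control mouse, at 312. Ctsd rose 1.74-fold in WT mice (log2 0.80, SE 0.15, adjusted p = 9.44e-04) and 1.90-fold in Cfb-/- mice (log2 0.93, SE 0.15, adjusted p = 3.75e-04), and relative to the median of all genes by 0.51 and 0.71 on the log2 scale. In terms of FPKM it accounted for most of the gain of the family, since the summed level of the 9 genes went from 825 ± 78.4 (SD, n = 3) to 1050 ± 99.8 (n = 4) in WT mice and from 726 ± 10.2 to 1047 ± 105 in Cfb-/- mice.

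Ctsb, a cysteine protease active in most cell types, rose less, and its call depended on the scaling. It was 106, 108, and 107 FPKM in WT control mice, 139, 147, 127, and 141 in WT diabetic mice, 100, 98.3, and 107 in Cfb-/- control mice, and 141, 140, 139, and 138 in Cfb-/- diabetic mice. The groups did not overlap, and the fold changes were 1.30 in WT mice (log2 0.37, SE 0.08, adjusted p = 0.00163) and 1.37 in Cfb-/- mice (log2 0.46, SE 0.08, adjusted p = 4.65e-04). After median-ratio scaling the log2 fold change was 0.09 in WT mice (adjusted p = 0.457) and 0.21 in Cfb-/- mice (adjusted p = 0.109), and neither was called. Relative to the median of all genes, the log2 change of Ctsb was 0.09 in WT mice and 0.24 in Cfb-/- mice.

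Ctsh, an aminopeptidase, was the only one of the 9 called lower in the values as deposited, in each genotype. WT control mice had 91.2, 125, and 96.3 FPKM and WT diabetic mice 69.6, 86.9, 84.7, and 69.9. Cfb-/- control mice had 90.8, 90.1, and 95.4 FPKM and Cfb-/- diabetic mice 64.0, 61.2, 63.5, and 71.4. Every diabetic mouse lay below every control mouse of its genotype, as was the case for 9.84% of genes in WT mice and 8.64% in Cfb-/- mice. Ctsh fell to 0.750 times that of controls in WT mice (log2 -0.42, SE 0.12, adjusted p = 0.0116) and 0.705 times in Cfb-/- mice (log2 -0.50, SE 0.12, adjusted p = 0.00462), and Ctsh was lower under both other scalings too, at -0.70 and -0.26 in WT mice and -0.75 and -0.47 in Cfb-/- mice. Relative to the median of all genes, the log2 change of Ctsh was -0.70 in WT mice and -0.72 in Cfb-/- mice. In WT mice the call rested on the second WT control mouse, at 125 FPKM, without which the log2 fold change was -0.28 (adjusted p = 0.0677).

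Ctsa, Ctsl, and Ctsz were not called in either genotype. Relative to the median of all genes, their log2 changes were -0.41, -0.42, and -0.58 in WT mice. In Cfb-/- mice they were 0.02, -0.18, and -0.22. Ctsa, the carboxypeptidase that also protects neuraminidase and β-galactosidase in the lysosome, was 66.6, 80.2, and 84.1 FPKM in WT control mice, 74.0, 72.3, 63.4, and 71.6 in WT diabetic mice, 61.0, 54.6, and 58.3 in Cfb-/- control mice, and 66.5, 63.0, 72.0, and 72.5 in Cfb-/- diabetic mice. The WT groups overlapped (log2 fold change -0.12, adjusted p = 0.309). The Cfb-/- diabetic mice lay above all Cfb-/- control mice, as was the case for 33.6% of all genes. Ctsa did not pass the threshold there (log2 0.24, adjusted p = 0.0748). After median-ratio scaling the Cfb-/- value was -0.00414 and that of WT mice -0.41 (adjusted p = 0.0143). After quantile normalization the Cfb-/- value was 0.28 (adjusted p = 0.0283) and that of WT mice 0.000422. The genes of its partners in the lysosomal complex, chosen after their values were seen, were Neu1, with log2 fold changes of -0.56 (adjusted p = 0.00217) in WT mice and -0.30 (adjusted p = 0.0703) in Cfb-/- mice, and Glb1, with -0.30 (adjusted p = 0.0457) and -0.55 (adjusted p = 0.00228).

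Ctsl, an endopeptidase of broad specificity, was 125, 119, and 125 FPKM in WT control mice and 116, 120, 101, and 114 in WT diabetic mice, with overlap (log2 -0.13, 95% interval -0.31 to 0.05, adjusted p = 0.216). Cfb-/- mice had 102, 99.0, and 99.8 FPKM in controls and 96.1, 102, 110, and 105 with diabetes (log2 0.04, 95% interval -0.13 to 0.22, adjusted p = 0.712). Median-ratio scaling gave -0.41 (adjusted p = 0.00554) in WT mice and -0.20 (adjusted p = 0.154) in Cfb-/- mice, and quantile normalization gave 0.07 and 0.16. Placental cathepsins form a cluster of near relatives of Ctsl in the mouse, and of the 9 such genes in the files 8 were listed at 0 in all mice and the other, Ctsm, reached 0.0459 FPKM at most.

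Ctsz, a carboxypeptidase, varied most among WT control mice, at 85.2, 131, and 124 FPKM, and was 94.1, 87.7, 88.8, and 95.5 in WT diabetic mice. Cfb-/- mice had 88.4, 99.1, and 76.3 FPKM in controls and 86.4, 92.1, 84.3, and 86.5 with diabetes. The log2 fold change with diabetes was -0.29 in WT mice (adjusted p = 0.0879) and -0.00235 in Cfb-/- mice (adjusted p = 0.992), and after median-ratio scaling it was -0.57 in WT mice (adjusted p = 0.0130) and -0.25 in Cfb-/- mice, against -0.10 and 0.07 after quantile normalization. Without the first WT control mouse, at 85.2 FPKM, the WT value was -0.48 (adjusted p = 0.00206).

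**Figure D2:**
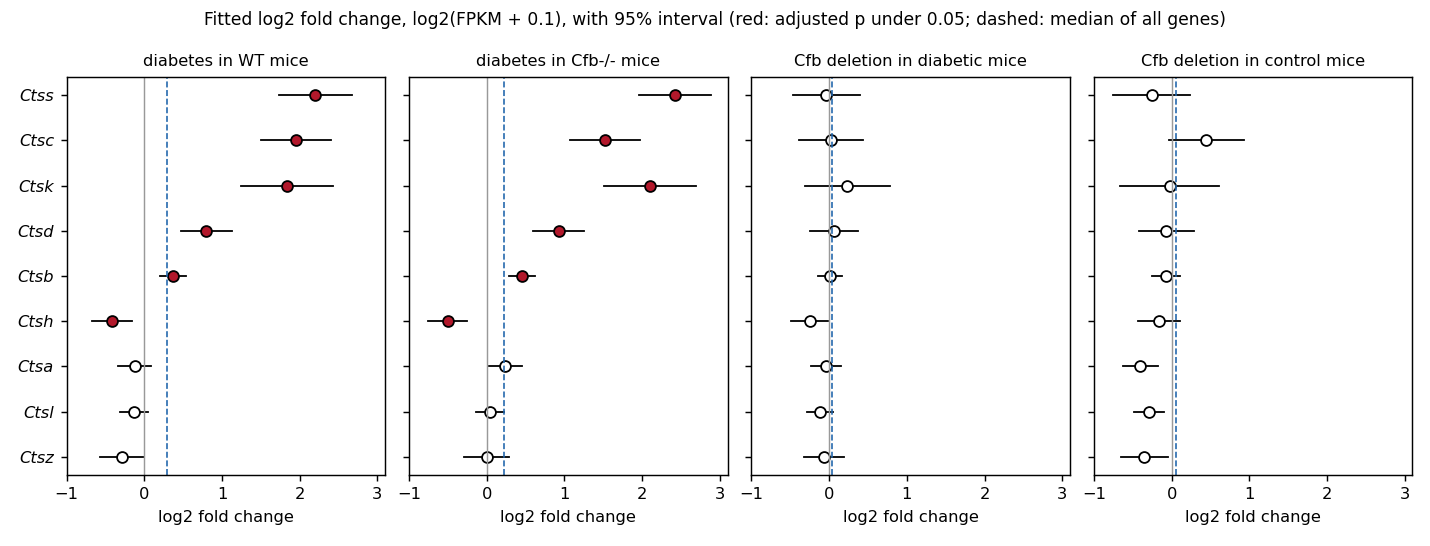
Fitted log2 fold change of each cathepsin on the log2(FPKM + 0.1) scale with its 95% interval (horizontal axis) in the 4 comparisons, red where the adjusted p was under 0.05, with the median of all genes dashed. Ctss, Ctsc, and Ctsk lie at 1.53 or more with diabetes in both genotypes, and no symbol is red in the 2 comparisons of Cfb-/- with WT mice.

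Deletion of Cfb was compared within diabetic mice and within control mice. In diabetic mice, 0 of the 9 cathepsins were called by limma, where 0.00671% of all genes, or 1 gene, were, and all 9 overlapped between genotypes, as did all but 1.86% (higher in Cfb-/- mice) and 0.885% (lower) of genes. By the study's criteria 0 of 9 were called, against 0.476% of genes. The largest difference was that of Ctsh, at 65.0 ± 4.42 FPKM (SD, n = 4) in Cfb-/- mice and 77.8 ± 9.29 (n = 4) in WT mice (log2 -0.25, 95% interval -0.49 to -0.02, unadjusted p = 0.0374, adjusted p = 1), and it was the only one with an unadjusted p under 0.05, which 3% of all genes had. The intervals were narrow for Ctsb (-0.14 to 0.16) and Ctsa (-0.23 to 0.16) and wide for Ctss (-0.47 to 0.40), Ctsc (-0.39 to 0.44), and Ctsk (-0.31 to 0.78), and a p that misses the threshold does not show that these genes were alike in both genotypes.

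In control mice, 0 of 9 were called as well, where again 0.00671% of all genes were, while 3 had an unadjusted p under 0.05, as had 17.5% of all genes, and 0 were called by the study's criteria, against 1.17% of genes. Ctsa was 58.0 ± 3.21 FPKM (SD, n = 3) in Cfb-/- mice and 76.9 ± 9.17 (n = 3) in WT mice (log2 -0.40, 95% interval -0.63 to -0.18, adjusted p = 0.236). Ctsl was 100 ± 1.46 and 123 ± 3.59 FPKM (log2 -0.29, 95% interval -0.49 to -0.10, adjusted p = 0.244). For both genes every Cfb-/- control mouse lay below every WT control mouse, which was so for 7.12% of all genes, and the values stayed negative under both other scalings. Ctsz was 87.9 ± 11.4 and 114 ± 24.9 FPKM, with overlap (log2 -0.35, adjusted p = 0.253). Without the first WT control mouse, Ctsa (-0.50, adjusted p = 0.0241) and Ctsz (-0.55, adjusted p = 0.0238) passed the threshold, and so did 1711 genes in all, against 1 with it. Ctsc was higher in every Cfb-/- control mouse than in every WT control mouse (log2 0.45, 95% interval -0.03 to 0.93, adjusted p = 0.306), as were 6.67% of genes.

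Whether the diabetes effect differed between genotypes was tested by the interaction, in which limma called 0 of 9 cathepsins and 0 of all genes, and 5.77% of all genes had an unadjusted p under 0.05. The only cathepsin with an unadjusted p under 0.05 was Ctsa (0.36 on the log2 scale, 95% interval 0.07 to 0.66, unadjusted p = 0.020, adjusted p = 0.779). For Ctsc the difference was -0.42 (95% interval -1.06 to 0.21) and for Ctss 0.22 (95% interval -0.44 to 0.88).

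The mix of cathepsin mRNA differed with diabetes. Ctsd made up 35.0% ± 0.614 (SD, n = 3) of the summed FPKM of the 9 genes in WT control mice and 48.0% ± 2.81 (n = 4) in WT diabetic mice, and 37.9% ± 0.954 and 50.4% ± 4.27 in Cfb-/- mice. Ctss went from 1.09% ± 0.0480 to 4.05% ± 0.786 in WT mice and from 1.04% ± 0.173 to 3.96% ± 0.797 in Cfb-/- mice. The shares of Ctsh (12.6% ± 1.41 to 7.5% ± 1.46 in WT mice), Ctsl (15.0% ± 1.84 to 10.8% ± 0.563), and Ctsz (13.7% ± 1.82 to 8.77% ± 0.719) were smaller in the diabetic mice. The family as a whole was 0.182% to 0.199% of all FPKM in WT control mice, 0.184% to 0.195% in Cfb-/- control mice, 0.262% to 0.322% in WT diabetic mice, and 0.289% to 0.355% in Cfb-/- diabetic mice, so the diabetic mice did not overlap the control mice. The sum of all FPKM was itself lower with diabetes. It was 390374 to 488196 in WT control mice and 330246 to 364953 in WT diabetic mice. In Cfb-/- mice the sum was 372884 to 394445 in controls and 330428 to 341160 with diabetes. The share of the family thus also reflects a smaller total.

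The order of levels was steady at its ends. In all 4 groups Ctsd came first and Ctss, Ctsc, and Ctsk came last, and Ctsc and Ctsk overlapped each other in all groups but the Cfb-/- control mice. Between them, Ctsl, Ctsz, Ctsb, and Ctsh followed each other in WT control mice at 123, 114, 107, and 104 FPKM, with overlap of each with the next. In diabetic mice Ctsb stood second, without overlap with Ctsl. By rank among all genes, Ctss moved from 4704 to 1334 in WT mice and from 5394 to 1338 in Cfb-/- mice, and Ctsd from 226 to 78 and from 192 to 64.

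**Figure D3:**
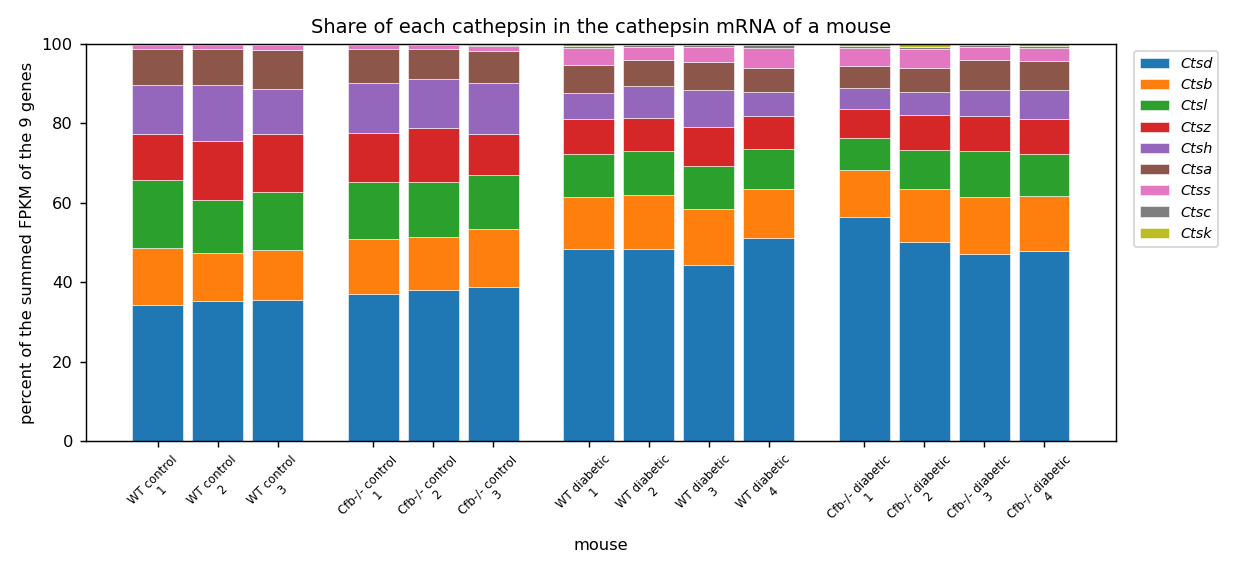
Share of each cathepsin in the summed FPKM of the 9 genes (vertical axis, percent) in each mouse, stacked. Ctsd covers 34.3% to 38.9% of the sum in control mice and 44.4% to 56.5% in diabetic mice.

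Markers of several cell types changed with diabetes, some of them called in WT mice only. Among all genes, 36.2% were called higher and 9.97% lower in WT mice, and 27.4% and 6.4% in Cfb-/- mice. Of 12 macrophage markers, 12 rose in WT mice and 11 in Cfb-/- mice, with a summed level of 77.3 to 94.7 FPKM in WT control mice, 63.9 to 100 in Cfb-/- control mice, 291 to 431 in WT diabetic mice, and 257 to 462 in Cfb-/- diabetic mice, and none was at 0 in all mice of a group. Fibroblast markers rose, 7 of 7 in each genotype, with sums of 28.2 to 35.4 FPKM in WT control, 30.1 to 46.9 in Cfb-/- control, 113 to 141 in WT diabetic, and 81.8 to 149 in Cfb-/- diabetic mice. Markers of injured tubule rose, 6 of 6 in each genotype, with sums of 233 to 247, 267 to 303, 1479 to 2383, and 1182 to 2233 FPKM in the same order of groups. Proximal tubule markers fell, 6 of 8 in WT mice and 7 of 8 in Cfb-/- mice, with sums of 6430 to 7599, 5164 to 6019, 2522 to 3089, and 1907 to 3022 FPKM. Of 9 markers of T and B cells, 8 rose in WT mice and 6 in Cfb-/- mice, at sums of 3.33 to 5.92, 2.49 to 4.43, 7.19 to 14.1, and 4.14 to 12.1 FPKM. Of 5 podocyte markers, 2 were called higher in WT mice and 5 in Cfb-/- mice, and of 6 distal nephron markers 2 and 1, beside 36.2% and 27.4% of all genes. Adipocyte markers summed to 7.37 to 31.3 FPKM in WT diabetic and 0.359 to 0.615 in Cfb-/- diabetic mice, where Plin1, Lep, and Cfd were at 0, and to 0.147 to 0.298 in WT control mice, where Plin1 and Lep were at 0, and 0.169 to 9.81 in Cfb-/- control mice. Of 5 tested, 5 rose in WT mice and 0 in Cfb-/- mice. Plin1 and Lep could pass the filter on low values only through WT diabetic or Cfb-/- control mice. A rise of such genes in WT mice was thus partly fixed by that filter. Of 6 urothelium markers, 6 rose in WT mice and 0 in Cfb-/- mice. Their sums were 0.690 to 46.3 FPKM in WT diabetic, 1.22 to 3.15 in Cfb-/- diabetic, 0.279 to 0.643 in WT control, and 0.607 to 8.89 in Cfb-/- control mice. The first WT diabetic mouse had a mean log2 level of urothelium markers of -2.55, within the WT control range of -2.96 to -2.40. The other WT diabetic mice had 1.09 to 2.49. The calls of T and B cell markers depended on the scaling, with 4 in each genotype after median-ratio scaling and 1 in WT and 0 in Cfb-/- mice after quantile normalization. So did those of podocytes (0 and 5, then 1 and 3 called higher) and of the distal nephron (0 and 0, with 1 lower in Cfb-/- mice, then 4 and 1). Macrophage and injured tubule markers kept their counts under both scalings, proximal tubule markers were called lower in 6 and 7 and then in 4 and 6 cases, and fibroblast markers higher in 6 and 7 and then in 5 and 5. For adipocyte markers the WT counts were 5 and then 2 and for urothelium markers 6 and then 4, with 0 in Cfb-/- mice each time. The part of these cells in the cathepsin changes was not tested.

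Set against the macrophage markers, Ctss and Ctsk kept nearly the same mean proportion in all groups, while Ctsd and Ctsb did not. Ctss amounted to 10.7% ± 1.10 (SD, n = 3) of the summed macrophage markers in WT control mice, 11.9% ± 1.10 (n = 4) in WT diabetic mice, 10.0% ± 0.769 in Cfb-/- control mice, and 11.4% ± 0.629 in Cfb-/- diabetic mice. The WT groups overlapped, whereas every Cfb-/- diabetic mouse, from 10.49% upward, lay above every Cfb-/- control mouse, the highest of which had 10.47%. Ctsk stood at 1.30% ± 0.542, 1.14% ± 0.0880, 1.40% ± 0.419, and 1.33% ± 0.161 in the same order, and Ctsc at 1.64% ± 0.249, 1.58% ± 0.0912, 2.54% ± 0.282, and 1.60% ± 0.204, with the Cfb-/- control mice higher. By contrast, Ctsd went from 343% ± 24.4 to 143% ± 14.6 of the markers in WT mice and from 373% ± 76.2 to 148% ± 21.8 in Cfb-/- mice, and Ctsb from 127% ± 11.5 to 39.7% ± 6.39 and from 137% ± 26.4 to 40.1% ± 10.8, so both rose less than the markers did. Markers of other cells also varied with these genes within groups. Pearson's r with the mean log2 level of macrophage markers was 0.942 for Ctss, 0.904 for Ctsc, 0.735 for Ctsk, and 0.782 for Ctsd. With injured tubule markers r was 0.881 for Ctss, 0.806 for Ctsd, 0.667 for Ctsc, and 0.639 for Ctsk. With fibroblast markers r was 0.709 for Ctsc, 0.721 for Ctsk, 0.533 for Ctss, and 0.242 for Ctsd. With proximal tubule markers it was -0.788 for Ctss, -0.678 for Ctsd, -0.458 for Ctsc, and -0.431 for Ctsk. Ctsb had r of 0.579 with macrophage and 0.665 with distal nephron markers. Which cells carried these mRNAs was not tested.

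**Figure D4:**
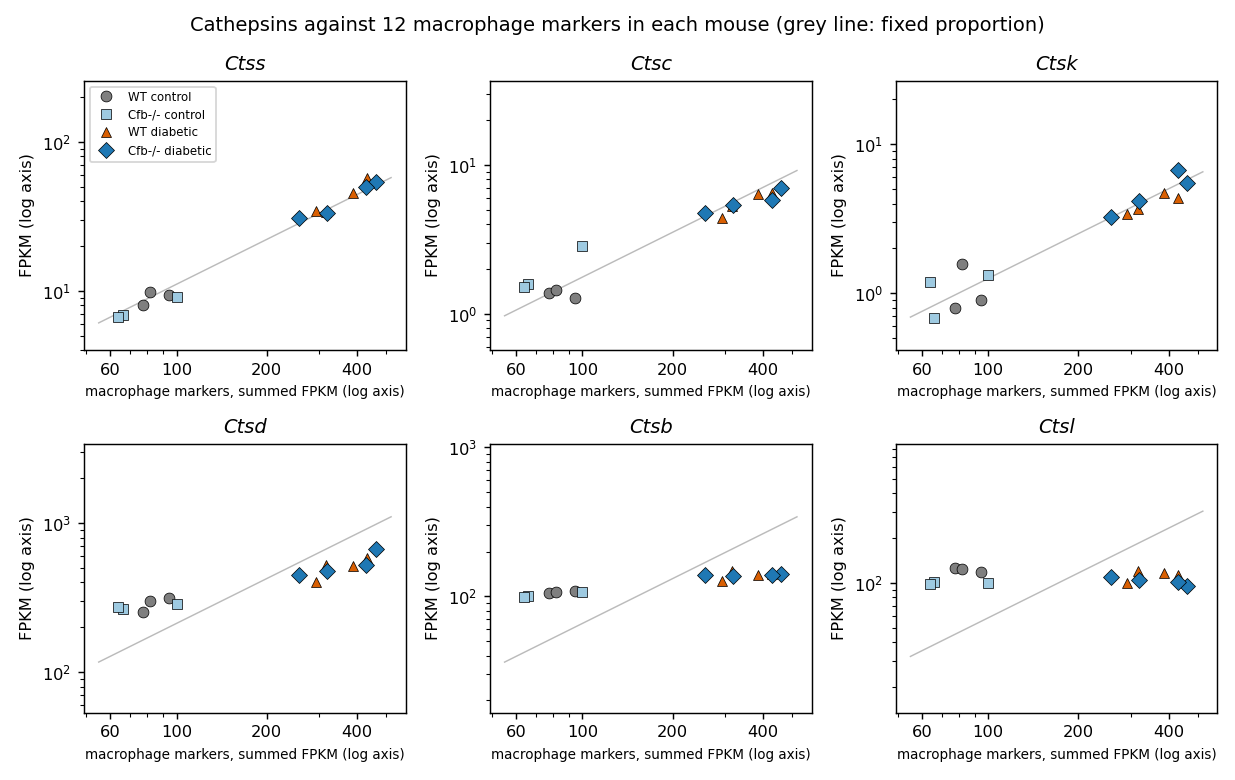
FPKM of 6 cathepsins (vertical, log axis) against the summed FPKM of 12 macrophage markers (horizontal, log axis) in each of the 14 mice, with a grey line of fixed proportion. Ctss and Ctsk lie near the line, and so does Ctsc except in Cfb-/- control mice, where it is higher. Ctsd and Ctsb rise less steeply than the line, and Ctsl is about level.

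Over the 14 mice, which share their groups and their depth scaling, the genes most like each cathepsin by Pearson's r of log2(FPKM + 0.1) were sought among 11387 genes, as a description. For Ctss they were Sparc, a matrix protein gene (r = 0.996), C1qc, a complement gene of macrophages (0.995), and Laptm5, of leukocyte lysosomes (0.995), and within groups these r were 0.934, 0.932, and 0.928. Ctsk was closest to Cygb, the gene of cytoglobin (0.995), Ier5 (0.987), and Serpinb6b (0.987), and Ctsc to Emb (0.991), Slc25a24 (0.986), and the fibrillar collagen gene Col3a1 (0.986). Ctsd was closest to Mfsd12 (0.982), Wfdc17 (0.981), and Pea15a (0.980), and Ctsb to the TNF receptor gene Tnfrsf1a (0.978), the macrophage mannose receptor gene Mrc1 (0.977), and Hfe (0.977). The r of all these neighbours were lower within groups, where the diabetes effect is removed. They were then 0.872 to 0.971 for Ctsk, 0.838 to 0.943 for Ctsc, 0.862 to 0.949 for Ctsd, and 0.594 to 0.725 for Ctsb.

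The remaining cathepsins had other neighbours. Ctsh was closest to Adh5 (0.960), P4hb (0.950), and Acads, an enzyme of fatty acid oxidation (0.948). Ctsl was closest to Lgmn, the lysosomal protease legumain (0.880), D130037M23Rik (0.849), and Aldh3b1 (0.830), Ctsa to Aldh3b1 (0.894), Uap1l1 (0.869), and Sars (0.826), and Ctsz to Cltb (0.952), Fkbp8 (0.945), and Rpl28 (0.945). Among the cathepsins themselves, Ctss had r = 0.969 with Ctsd, 0.966 with Ctsb, 0.965 with Ctsk, and 0.957 with Ctsc, and -0.796 with Ctsh. Within groups, where the diabetes effect is removed, the same r were 0.794, 0.385, 0.697, 0.773, and -0.347.

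Other cathepsins of the files served as a comparison. Ctso rose from 7.54 ± 0.915 FPKM (SD, n = 3) to 12.2 ± 1.42 (n = 4) in WT mice (log2 0.68, adjusted p = 0.00132) and from 8.92 ± 1.86 to 13 ± 0.375 in Cfb-/- mice (log2 0.56, adjusted p = 0.00603). Ctsf was at 26.0 ± 2.10 and 25.6 ± 3.18 FPKM in WT control and diabetic mice (log2 -0.03, adjusted p = 0.863) and at 24.6 ± 2.50 and 24.9 ± 2.58 in Cfb-/- mice (log2 0.02, adjusted p = 0.922). Ctse was low throughout, at 0.0838 to 0.135 FPKM in WT control mice and 0.347, 2.01, 3.70, and 0.851 in WT diabetic mice (adjusted p = 0.00527), and at 0 to 0.651 in Cfb-/- control and 0.201 to 0.358 in Cfb-/- diabetic mice (adjusted p = 0.880), and Ctsg was listed at 0 in all mice. The 2 of 4 tested genes of this list called in WT mice were Ctse and Ctso, and in Cfb-/- mice only Ctso was called, which was lost after median-ratio scaling (0.32, adjusted p = 0.0523). Among all genes 36.2% were called higher in WT mice and 27.4% in Cfb-/- mice.

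Most tested inhibitors of cathepsins rose, where 36.2% of all genes were called higher in WT mice and 27.4% in Cfb-/- mice. Of 14 listed, 6 were tested, and 5 rose in WT mice (Serpina3g, Ctla2b, Cst7, Cstb, and Ctla2a) and 5 in Cfb-/- mice (Serpina3g, Ctla2b, Cstb, Ctla2a, and Cst3), and the medians of their log2 fold changes were 0.88 and 0.80, beside 0.29 and 0.22 over all genes. Serpina3g, a serpin that blocks cysteine cathepsins, went from 0.718 ± 0.0283 FPKM to 5.47 ± 1.64 in WT mice (log2 2.72, adjusted p = 3.34e-05) and from 0.793 ± 0.312 to 5.37 ± 2.32 in Cfb-/- mice (log2 2.56, adjusted p = 5.75e-05). Cstb, the intracellular inhibitor cystatin B, went from 106 ± 16.0 to 165 ± 19.7 FPKM in WT mice (log2 0.64, adjusted p = 0.00123) and from 92.0 ± 12.0 to 160 ± 10.4 in Cfb-/- mice (log2 0.80, adjusted p = 2.64e-04). Cst3, the secreted cystatin C, was at 0.41 in WT mice (adjusted p = 0.0720) and 0.70 in Cfb-/- mice (adjusted p = 0.00720). After median-ratio scaling 2 inhibitors were called in WT mice and 4 in Cfb-/- mice, and Cstb was not called in WT mice (0.36, adjusted p = 0.0742).

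MHC class II genes, whose products Ctss serves, had the highest median of the 10 lists in both genotypes. Of 7 genes, 6 rose in WT mice and 7 in Cfb-/- mice, with medians of 1.26 and 1.83 on the log2 scale and the same counts under both other scalings. Over all genes, 36.2% were called higher in WT mice and 27.4% in Cfb-/- mice in the values as deposited. Cd74, the invariant chain cut by Ctss, rose by 1.5 (adjusted p = 1.15e-04) and 2.04 (adjusted p = 1.44e-05), H2-Eb1 by 1.45 and 1.85, H2-DMb1 by 0.99 and 1.42, and H2-DMa by 0.99 and 1.52. Of 8 zymogens that cathepsin C activates, 3 were tested and all were low. Prtn3 was called higher in both genotypes, with all control mice at 0. It was at 0.143 to 0.545 FPKM in WT diabetic and 0.0664 to 0.352 in Cfb-/- diabetic mice. Prtn3 thus passed the filter on low values only through diabetic mice, so its call was in part fixed by that filter. Gzmb was called in Cfb-/- mice (log2 1.05, adjusted p = 0.0379). Median-ratio scaling left 1 of the 3 called higher in each genotype. After quantile normalization 1 was called higher and 1 lower in WT mice, and 0 of the 3 were called in Cfb-/- mice.

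**Figure D5:**
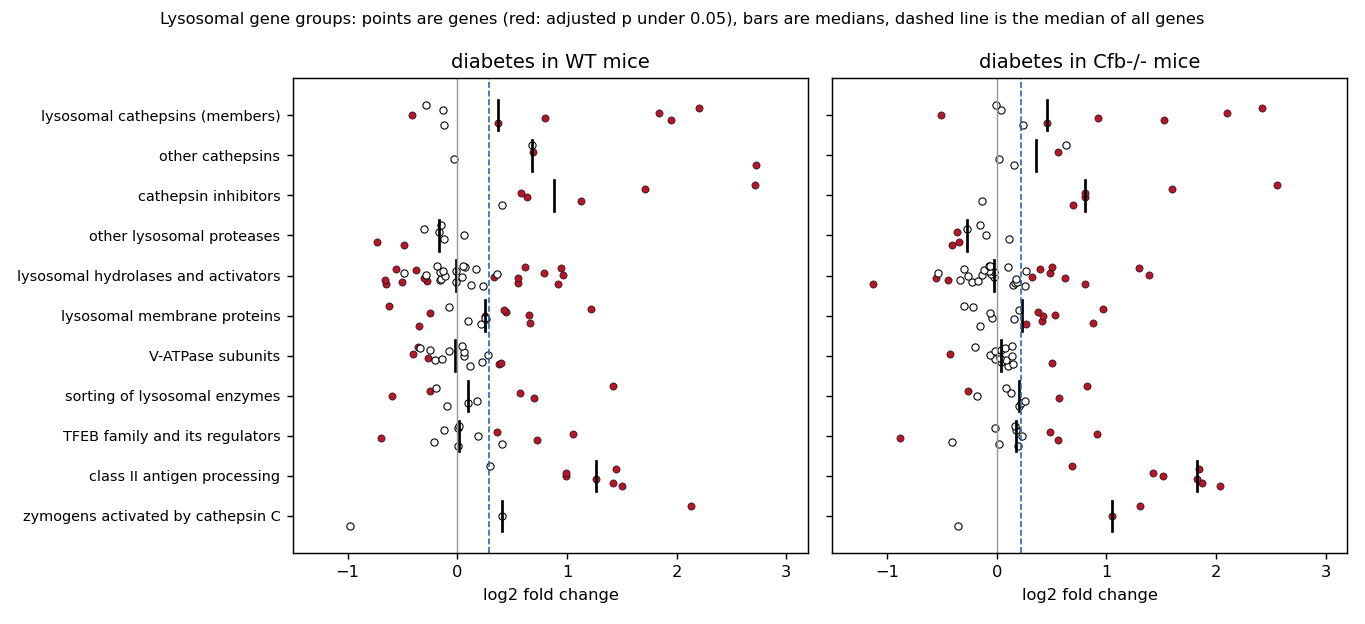
Log2 fold change with diabetes (horizontal axis) of each tested gene in 11 groups of genes (rows) for WT mice (left) and Cfb-/- mice (right), with red symbols at an adjusted p under 0.05, bars for the group medians, and the median of all genes dashed. Class II genes have the highest medians, 1.26 and 1.83, and the medians of hydrolases are at -0.01 and -0.02.

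The rest of the lysosome did not move as a block. Beside the counts of this and the following lists, 36.2% of all genes were called higher and 9.97% lower in WT mice. In Cfb-/- mice these shares were 27.4% and 6.4%. Of 32 hydrolases and activators, 8 rose and 7 fell in WT mice and 8 rose and 3 fell in Cfb-/- mice, with medians of -0.01 and -0.02. Hexa, a β-hexosaminidase subunit, rose by 0.96 and 1.39 and the phospholipase Pla2g15 by 0.95 and 1.30, whereas Galns (-0.66 and -0.44) and Arsb (-0.65 and -1.13), both sulfatases, fell, and these directions held under both other scalings, though the WT call of Arsb was lost after quantile normalization (adjusted p = 0.0718). Of 7 other lysosomal proteases, 0 rose, and Dpp7 (-0.73 and -0.34) and Cpq (-0.48 and -0.40) fell in both genotypes and Prcp (-0.36, adjusted p = 0.0121) in Cfb-/- mice. Lgmn, whose protease trims several cathepsins and which was chosen after its values were seen, was at 207 ± 11.4 FPKM in WT control and 191 ± 18.4 in WT diabetic mice (adjusted p = 0.416). Median-ratio scaling raised the counts of falls to 16 hydrolases in WT mice and 13 in Cfb-/- mice, and to 6 and 5 of the other proteases.

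Of 14 membrane proteins of the lysosome, 6 rose and 3 fell in WT mice and 7 rose and 0 fell in Cfb-/- mice, and median-ratio scaling left 3 higher and 3 lower in WT mice and 2 and 3 in Cfb-/- mice. Scarb2, the receptor that carries β-glucocerebrosidase, rose by 1.22 and 0.97 and Cln3 by 0.66 and 0.88 (in WT mice not called after quantile normalization, adjusted p = 0.133), and Tmem192 (-0.63) and Mcoln1 (-0.25) fell in WT mice. Cd63 was called lower in WT mice (-0.35, adjusted p = 0.0349), with its sign turned under quantile normalization (0.04). Of 16 subunits of the V-ATPase, the proton pump of the lysosome, 2 rose and 3 fell in WT mice and 1 rose and 1 fell in Cfb-/- mice. In WT mice median-ratio scaling turned this into 0 higher and 9 lower and quantile normalization into 4 higher and 0 lower. The subunits called in WT mice were Atp6v0a1 (0.40), Atp6ap2 (0.38), Atp6v0d1 (-0.26), Atp6v1g1 (-0.36), and Atp6v1b2 (-0.41), and in Cfb-/- mice Atp6v0a1 (0.51) and Atp6v1b2 (-0.42).

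Among 9 genes that sort enzymes to the lysosome, Sort1, the receptor sortilin, rose by 1.42 (adjusted p = 1.96e-04) and 0.83 (adjusted p = 0.00964), and Gnptab, which makes the mannose 6-phosphate tag, by 0.69 and 0.57. M6pr, the cation-dependent receptor for that tag, fell (-0.25 and -0.26), Gnptg fell in WT mice (-0.60), and Igf2r rose in WT mice (0.57). The calls of Sort1 held under both other scalings. Those of M6pr were lost after quantile normalization in both genotypes, that of Igf2r under both scalings, and those of Gnptab under both scalings in Cfb-/- mice and after quantile normalization in WT mice. Counts of sorting genes higher and lower after median-ratio scaling were 2 and 4 for WT and 1 and 2 for Cfb-/- mice, and after quantile normalization 1 and 2 for WT and 1 and 0 for Cfb-/- mice. Of 11 genes of the TFEB family and its regulators, 3 rose and 1 fell in each genotype, which is near the share over all genes. That share was 36.2% higher and 9.97% lower in WT mice, and 27.4% and 6.4% in Cfb-/- mice. Rragd, a GTPase gene of that circuit, rose by 1.05 and 0.92, Mitf by 0.72 and 0.56, and Tfe3 by 0.36 and 0.49, whereas Mtor fell (-0.70 and -0.88), but only Rragd among the 3 that rose was called under every scaling. Tfe3 lost its call under both other scalings in both genotypes, and Mitf did so in Cfb-/- mice and, after quantile normalization, in WT mice. In Cfb-/- mice both other scalings left 1 gene of this list higher and 2 lower, Mtor and Fnip2. In the comparisons of Cfb-/- with WT mice, limma called 0 genes of any of these 10 lists.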

How the data were processed

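Kidney RNA from 14 mice, 1 library per mouse, was sequenced by the authors on a stranded mRNA protocol. The authors deposited 1 table of FPKM values per mouse, already normalized for transcript length and depth. The submitters' processing notes name Trimmomatic, HISAT2, Cufflinks, HTSeq, DESeq, and GRCm38.p6, without versions or roles. Relative depth, estimated from the smallest steps between FPKM values, was 0.839 to 1, and absolute depth is unknown. No 2 files were identical, with r of 0.981 to 0.990 within groups.

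Groups were taken from the sample titles. Differences were tested on log2(FPKM + 0.1) with limma 3.58.1 (R 4.3.3; linear model over all 14 mice, empirical Bayes with trend, two-sided, Benjamini-Hochberg adjustment over 14912 genes that reached an FPKM of 0.1 in 3 mice or more). The log2(FPKM + 0.1) scale understates changes of low genes. A call was an adjusted p under 0.05, and the study's criteria were also applied. The fit was tested on simulated data. Alternatives were other filters, pseudocounts of 1 and 0.01, median-ratio scaling, quantile normalization, only the groups compared, a replicate block, and each mouse left out in turn.

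The 9 genes and all lists (other cathepsins, cathepsin inhibitors, other lysosomal proteases, hydrolases, membrane proteins, V-ATPase, sorting, TFEB family, zymogens activated by cathepsin C, class II genes, and markers of 9 cell types) were chosen with earlier results of these data known. Genes were named by rule: from each list the 2 highest and 2 lowest log2 fold changes in WT mice among called genes whose mean FPKM was 1 or more, the members of counts of 5 or fewer, and the 3 genes most like each cathepsin. Genes outside the rule are marked as chosen after their values were seen.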

Additional observations from a re-analysis of the deposited data

How the results depend on the processing

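Ctss, Ctsc, Ctsk, and Ctsd were called in 15 of 15 alternatives in both genotypes, Ctsb in 14 of 15 in both (not after median-ratio scaling), and Ctsh in 14 of 15 in WT mice (not without WT control replicate 2) and 15 of 15 in Cfb-/- mice. With a replicate block, 6 cathepsins were called in each genotype and 6278 and 4463 genes, and 0 cathepsins in the other comparisons, so the block changed none of these counts of cathepsins. Same-numbered mice had correlated deviations over 0.1 in 5 of 19 pairs (-0.52 to 0.341), and differently numbered mice had r of -0.414 to 0.535. Deviations from a group mean cancel within the group, so these r cannot show whether same-numbered mice shared a batch.

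At the study's criteria, log2(FPKM + 1) left 981 genes in WT mice and 860 in Cfb-/- mice (2603 and 2228 as reported), quantile normalization 1559 and 1403. For Cfb deletion in diabetic mice the 1 called gene became 2 with no filter, 2 with log2(FPKM + 0.01), 3 with only the groups compared, and 1 to 6 with a mouse left out, and the 71 genes at the study's criteria became 25 with FPKM of at least 1, 18 with log2(FPKM + 1), and 59 to 122 with a mouse left out (122 without WT diabetic replicate 1). In control mice the 1 called gene became 3, 4, 4, and 1 to 1711 in the same order, the 174 genes at the study's criteria became 36 with log2(FPKM + 1), 421 with log2(FPKM + 0.01), and 126 to 356 with a mouse left out, and 0 to 2 cathepsins were called, 2 without WT control replicate 1. The interaction went from 0 to 2 genes with log2(FPKM + 0.01) and 0 to 4 with a mouse left out.

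Signs turned for uncalled values. With diabetes, quantile normalization gave Ctsa 0.000422 and Ctsl 0.073 in WT mice and Ctsz 0.068 in Cfb-/- mice, and median-ratio scaling gave Ctsa -0.00414 and Ctsl -0.20 in Cfb-/- mice. For Cfb deletion in diabetic mice, median-ratio scaling gave Ctsb -0.042 and Ctsc -0.027, and quantile normalization Ctsa 0.00416 and Ctsc -0.040. In control mice, quantile normalization gave Ctsb 0.080, Ctsd 0.16, and Ctsh 0.00514. With a mouse left out, Ctsz in Cfb-/- mice ranged from -0.10 to 0.088. For the deletion in diabetic mice the ranges were -0.087 to 0.00123 for Ctsa, -0.030 to 0.040 for Ctsb, -0.084 to 0.11 for Ctsc, -0.059 to 0.14 for Ctsd, and -0.17 to 0.12 for Ctss, for the deletion in control mice -0.20 to 0.25 for Ctsk, and for the interaction -0.015 to 0.44 for Ctsk and -0.23 to 0.00103 for Ctsh. Quantile normalization moved shares of the summed FPKM by more than 1 SD for Ctsc (0.442% in Cfb-/- diabetic and 0.25% in WT control mice), Ctsd (33.7% in WT control mice), Ctsk (0.339% in WT diabetic and 0.201% in WT control mice), and Ctss (1.36% in WT control mice). The cause was not tested. Without counts, no interval for the depth of a value could be given.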
